A study of Mus musculus with 26 samples.

Results

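Mouse induced pluripotent stem cells (iPSC) were compared with mouse embryonic stem cells (ESC) for the levels of mature microRNAs, using 11 of the 26 samples of the study. The samples were chosen by their labels alone, and all 315 assay positions were kept. The iPSC were 5 clones derived from tail-tip fibroblasts, with 1 sample per clone. The labels do not give the factors used for reprogramming. The ESC were 3 samples of line D3 and 3 samples of line R1, so that ESC stand here for these lines and not for several derivations of each. No sample of either kind carried a further treatment, and all were kept undifferentiated on mitomycin-inactivated mouse embryonic fibroblasts, in medium with knockout serum replacement and leukaemia inhibitory factor (LIF, 1000 U/ml). RNA of these feeder cells can enter every one of the 11 samples, and its share was not measured. The 5 samples of the parent tail-tip fibroblasts serve below as a scale outside pluripotency. The clones are separate by their labels, but no label tells whether the 3 samples of an ESC line were separate cultures. A p-value here therefore reflects only how samples scattered, which can be technical. In the tests of level, that scatter was shared over all groups of the study, including fibroblasts, islets and hepatocytes.

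MicroRNAs are short RNAs that guide a silencing complex to messenger RNAs, which lowers their translation or stability. Mouse pluripotent cells are known for a small set of abundant microRNAs, above all the miR-290 cluster. This cluster and the related miR-302 cluster speed the passage from G1 to S phase and keep differentiation genes low. The comparison addresses how close the microRNA profile of reprogrammed clones came to that of ESC. Levels were read by RT-qPCR with a stem-loop primer for each mature microRNA and a fluorescent probe that follows the amplification. The result is a threshold cycle (Ct), and a higher Ct means less RNA. The files name assays by plate and well position, for example B74, and the reference tables at hand do not pair positions with microRNAs. For this reason no assay is given a microRNA name or sequence, and the labelled cell types were not checked against marker microRNAs. In RNA from whole cultures, fewer cells with a microRNA and less of it per cell cannot be told apart.

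A Ct below 35 was taken as detection. The iPSC clones had 242, 275, 255, 257 and 258 of 315 assays below this limit, against 264, 264 and 258 in D3 and 257, 241 and 270 in R1. The lowest number was in 1 R1 sample and the highest in iPSC clone 2, and the ranges of the cell kinds overlapped. The mean was 257.4 ± 11.8 in iPSC (SD, n = 5) and 259.0 ± 10.0 in ESC (SD, n = 6), a difference of -1.60 assays (two-sided exact permutation p = 0.814, where 5 against 6 samples allow 0.00433). The sign of this small difference turned without iPSC clone 1, to 2.25, and without R1 replicate 3, to 0.60. D3 averaged 262.0 ± 3.46 and R1 256.0 ± 14.5 (SD, n = 3 each; exact permutation p = 0.6, the smallest possible being 0.1).

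Most of the panel was detected in both kinds of cell. Of the 315 positions, 186 (59.0%) had a Ct below 35 in all 11 samples and 15 in none. Another 28 were detected in all 5 clones but not in all 6 ESC samples, and 23 of these lacked a single ESC sample. Conversely, 22 were detected in all 6 ESC samples but not in all 5 clones, and 17 of these lacked a single clone. Detected in some samples of both kinds were 49. No assay, 0 of 315, was detected in all samples of one kind and in at most 1 sample of the other. Detected in samples of one kind alone were 6 assays in iPSC and 9 in ESC. In iPSC each of the 6 was found in at most 2 clones, and 3 of them, A21, B28 and D12, had Ct values of 23.7, 11.1 and 3.43 in clone 2. In ESC the most frequent were B38, with a Ct of 33.3 to 34.5 in 4 of 6 ESC samples and 35.1 to 37.7 in the clones, and B18, at 33.7 to 34.3 in 3 of 6 ESC samples. B38 and B18 thus lay close to the limit in the samples that detected them. Detection in all 11 samples covered 69 of 96 positions of plate A, 58 of 96 of plate B, 49 of 95 of plate C and 10 of 28 of plate D.

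For comparisons of level, each Ct was subtracted from a reference Ct of the same sample. The reference was the mean over the assays detected in all 26 samples, taken separately for plates A and B together, for plate C and for plate D. The result is a relative level on the log2 scale, where 0 is the level of the average reference assay of those plates. A Ct above 35, or no Ct, was set to 35. Because the reference differed between samples, that limit stood at different relative levels. On plate C the reference ranged between 25.2 and 28.4 cycles, so the limit lay at -6.57 in clone 1 and at -9.76 in clone 4, with the other samples in between.

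The 5 assays with the lowest mean Ct among those with a Ct in all 11 samples were B74, B77, A03, B39 and A75. B74 had a Ct of 18.0, 17.1, 16.2, 18.6 and 18.4 in the clones, against 17.2, 16.0 and 16.6 in D3 and 20.6, 19.3 and 17.0 in R1. The 5 clones lay within the range of the ESC samples, and R1 replicate 1 had the least. As a relative level B74 was at 9.85 ± 1.04 in iPSC (SD, n = 5) and 9.79 ± 1.41 in ESC (SD, n = 6), against -8.23 ± 2.15 in fibroblasts (SD, n = 5), where 2 of 5 samples were detected. The log2 difference of iPSC minus ESC was 0.05, with a 95% interval of -1.59 to 1.70 from limma. B77 had the same order, at 9.18 ± 1.21 in iPSC, 8.37 ± 0.98 in ESC and -8.43 ± 2.06 in fibroblasts (SD, n = 5, 6 and 5). Its difference of 0.81 had an interval of -0.96 to 2.58, which spans both no difference and a difference of more than 4-fold. The other 3 abundant assays differed by 0.11 (A03), 0.16 (B39) and 0.17 (A75). A75 was even across the pluripotent samples, at 6.33 ± 0.50 in iPSC and 6.16 ± 0.39 in ESC (SD, n = 5 and 6). Its interval was nonetheless -5.05 to 5.39, because the error was shared with fibroblasts and hepatocytes, where its SD was 7.72 and 7.13.

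In the direct comparison, iPSC and ESC were separated by no assay past an adjusted p of 0.05. Limma called 0 of 273 assays tested (0%), with the smallest adjusted p at 0.134. At an unadjusted p under 0.05 there were 20 assays (7.33%), 8 higher in iPSC (2.93%) and 12 lower (4.4%). Other settings called between 0 and 2 assays, and between 6 and 37 had an unadjusted p under 0.05. The median log2 difference over all 273 assays was 0.06 and the median absolute difference 0.45. An absolute difference above 1, or 2-fold, was found at 59 assays and above 2, or 4-fold, at 19. Among the 186 assays detected in all 11 samples these numbers were 25 and 5, with a median absolute difference of 0.34. For the other 87 assays the median was 0.86, and 14 of them exceeded 2.

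How small a difference this fit could have shown is given by its intervals. Their error was shared with the other groups of the study, so they do not rest on the scatter of the 11 samples alone. Over the 273 assays the half-width of the 95% interval was 1.55 at the median (log2), and over the 186 detected throughout it was 1.39. It lay wholly within 4-fold in either direction for 114 of 273 assays, and for 103 of the 186 (55.4%). For the remaining assays the interval reached 4-fold or more, so that a difference of that size was not excluded at this precision. An interval within 2-fold was reached by 2 assays, B04 at -0.96 to 0.81 and B55 at -0.96 to 0.80, both named after their values were seen. More abundant assays were not measured with a narrower interval. The median half-width was 1.42, 1.38 and 1.42 for the 62 lowest, 62 middle and 62 highest of the 186 assays by level. The median SD was 0.96, 0.78 and 0.70 among the clones in these classes, and 0.89, 0.68 and 0.63 within the ESC lines.

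**Figure D1:**
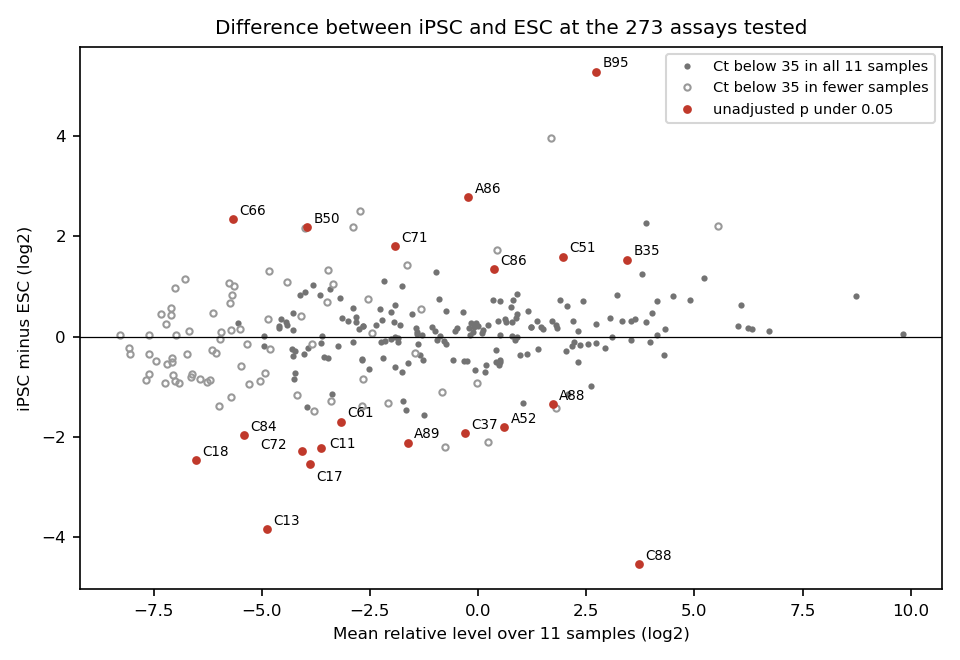
Difference of iPSC minus ESC (log2, vertical axis) against the mean relative level over the 11 samples (log2, horizontal axis) for each of the 273 assays tested. Filled grey points had a Ct below 35 in all 11 samples, open points in fewer, and the 20 red, labelled points had an unadjusted p under 0.05. The filled points gather around 0 at all levels, with 5 of the 186 assays detected throughout beyond 2 in either direction.

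In relative level, all clones stood apart from all ESC samples at 5 of the 273 assays (1.83%). Of these, 3 were higher in iPSC (A86, C66 and C51, 1.1%) and 2 lower (C29 and C61). A86 had the widest gap. Its relative level was 2.45, 1.12, 1.05, 0.76 and 1.07 in the clones, against -1.39, -2.21 and -1.96 in D3 and -0.20, -1.34 and -1.81 in R1. Clone 1 was the highest sample and R1 replicate 1 the highest of the ESC. The means were 1.29 ± 0.67 in iPSC (SD, n = 5) and -1.49 ± 0.71 in ESC (SD, n = 6), and the fibroblast mean lay lower, at -5.78 ± 2.21 (SD, n = 5). The same order held in raw Ct, which was 25.5 to 27.4 in the clones and 28.2 to 29.8 in ESC. The log2 difference was 2.78, or 6.85-fold, with an SE of 1.21 (95% interval 0.26 to 5.29, limma adjusted p = 0.583). The error in this fit was shared with islets and hepatocytes, in which the SD of A86 was 4.51 and 1.87. With the iPSC and ESC samples alone the difference was the same and the assay passed the threshold (adjusted p = 0.0172). It was the 1 assay called there. Leaving out each sample in turn was done in the fit of all groups, where A86 was not called. It gave differences between 2.48 and 3.00, and no call. The call with the iPSC and ESC samples alone was not tested in this way.

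C51 was at 3.91, 1.86, 2.85, 2.62 and 2.90 in the clones, against 0.85, 1.71 and 1.16 in D3 and 1.54, 0.90 and 1.24 in R1. The gap between clone 2, the lowest clone, and D3 replicate 2, the highest ESC sample, was small. In raw Ct the groups overlapped at C51, since R1 replicate 3 had a lower Ct than clones 1 and 3. The log2 difference was 1.59 (SE 0.59, adjusted p = 0.415), and fibroblasts were at -4.11 ± 1.38 (SD, n = 5). C66 was weaker, at -3.75, -3.37, -5.37, -4.56 and -4.85 in the clones, against -6.90, -5.92 and -5.92 in D3 and -5.69, -7.57 and -8.34 in R1. All clones were above all ESC samples in relative level, and R1 replicate 2 was not detected. In raw Ct the groups overlapped here too, since clone 3 had a higher Ct than D3 replicates 2 and 3. The difference at C66 was 2.34 (SE 0.92, adjusted p = 0.415), or 1.13 with the limit at 32. No fibroblast sample reached a Ct below 35 at C66. On the other side, C29 was at -2.11 ± 0.61 in iPSC and -0.55 ± 0.99 in ESC, and C61 at -4.09 ± 0.90 in iPSC and -2.40 ± 0.77 in ESC (SD, n = 5 and 6). The groups stayed apart by only 0.02 at C29 and 0.0040 at C61, and the differences of -1.55 and -1.69 had adjusted p of 0.827 and 0.651.

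The smallest p among the higher assays belonged to B35. Its relative level was 4.59, 3.96, 4.81, 4.49 and 3.54 in the clones, against 2.29, 3.90 and 2.57 in D3 and 2.68, 2.25 and 2.77 in R1. D3 replicate 2 reached into the range of the clones, and the other 5 ESC samples lay below every clone. The log2 difference was 1.54, or 2.90-fold (SE 0.40, limma adjusted p = 0.134). Fibroblasts were at -3.00 ± 0.44 (SD, n = 5), well under both kinds of pluripotent cell. B50 had the largest SD among the clones, 1.99, of the 8 higher assays. It was at -2.48, -2.11, -0.82, -2.23 and -6.12 in the clones, against -5.21, -1.76 and -4.44 in D3 and -4.66, -6.53 and -7.05 in R1. Clone 5 stood among the low R1 samples and D3 replicate 2 among the high clones, and the difference was 2.19 (SE 0.83, adjusted p = 0.415), or 1.34 with the limit at 32.

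B95 had the largest estimate among the 8, which rested on 2 empty wells. It had a Ct of 22.1, 22.1, 22.9, 20.9 and 21.5 in the clones, against 23.1, 25.2 and none in D3 and 23.8, none and 21.3 in R1. R1 replicate 3 was within the range of the clones, and D3 replicate 3 and R1 replicate 2 had no Ct. With these set to 35 the log2 difference was 5.28 (SE 2.27, adjusted p = 0.583), and with them missing it was 1.49. C71 had no Ct in R1 replicate 1, and its difference of 1.80 was 0.91 without that sample. The last of the 8, C86, differed by 1.35 (SE 0.63, adjusted p = 0.651), with 1.10 ± 0.78 in iPSC and -0.24 ± 1.08 in ESC (SD, n = 5 and 6). In 6 of the 8 higher assays the fibroblast mean lay below both pluripotent means, the exceptions being B50 and B95. This was also the case at 159 of all 273 assays tested (58.2%).

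Among the assays lower in iPSC, C13 had the smallest p. Its Ct was 34.6, 30.1, 35.7, 33.1 and none in the clones, against 27.5, 30.0 and 28.8 in D3 and 30.3, 31.3 and 31.1 in R1. Clone 2 was within the range of the ESC, and 2 clones were not detected. The relative level was -6.97 ± 1.80 in iPSC (SD, n = 5) and -3.14 ± 1.78 in ESC (SD, n = 6), and no fibroblast sample was detected. The log2 difference was -3.83 (SE 0.98, limma adjusted p = 0.134). It was -1.90 with the limit at 32 and -4.98 with the limit at 40, since some clones stood at the limit.

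Some neighbouring positions of C13 differed in the same direction. Of the 8 positions C11 to C18, 5 were tested, and C11, C13, C17 and C18 were lower in iPSC, each with an unadjusted p under 0.05. C14 was the other one, with a difference of 0.13. C17 had a Ct of 32.7, 29.2, 33.3, 31.4 and 32.6 in the clones, against 26.9, 29.03 and 28.8 in D3 and 29.3, 31.0 and 31.5 in R1. C11 had 32.9, 29.2, 32.2, 31.3 and 31.5 in the clones, against 27.5, 29.1 and 28.4 in D3 and 29.3, 31.1 and 30.4 in R1. At C11, C13, C17 and C18 alike, clone 2 had the lowest Ct of the clones and D3 replicate 1 the lowest of all 11 samples. The log2 differences were -2.23 at C11, -2.55 at C17 and -2.46 at C18 (SE 0.86, 0.95 and 0.92, each with an adjusted p of 0.415). The wells of the run were singled out after their values were seen, and C18 was detected in 2 of 5 clones. Plate C as a whole held 13 of the 20 assays at an unadjusted p under 0.05, with 4 of 90 tested on plate A, 3 of 85 on plate B, 13 of 80 on plate C and 0 of 18 on plate D. The median difference over all assays of plate C was -0.08.

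The other lower assays were C72, C37, A89, A52 and A88. A89 was at -3.89, -2.99, -1.12, -3.85 and -2.02 in the clones, against -1.01, -1.19 and -0.91 in D3 and -0.17, 0.08 and -0.78 in R1. Clone 3 reached the lowest ESC sample, D3 replicate 2, and the ESC samples were more even than the clones. The difference was -2.11 (SE 0.72, adjusted p = 0.415). A88 was the most abundant of the group, at 1.00 ± 0.92 in iPSC and 2.35 ± 0.62 in ESC (SD, n = 5 and 6), with a difference of -1.35 (SE 0.53). C37 differed by -1.92 and by -1.30 without clone 1, its lowest clone at -3.86. C72 differed by -2.29, with clone 1 not detected, and A52 by -1.80. Fibroblasts lay below both pluripotent means in 6 of the 8 lower assays, against 159 of all 273 assays tested (58.2%). The exceptions among the 8 were C37 and A52. C37 was at -1.36 ± 1.57 in iPSC, 0.57 ± 0.63 in ESC and 1.47 ± 1.08 in fibroblasts (SD, n = 5, 6 and 5).

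**Figure D2:**
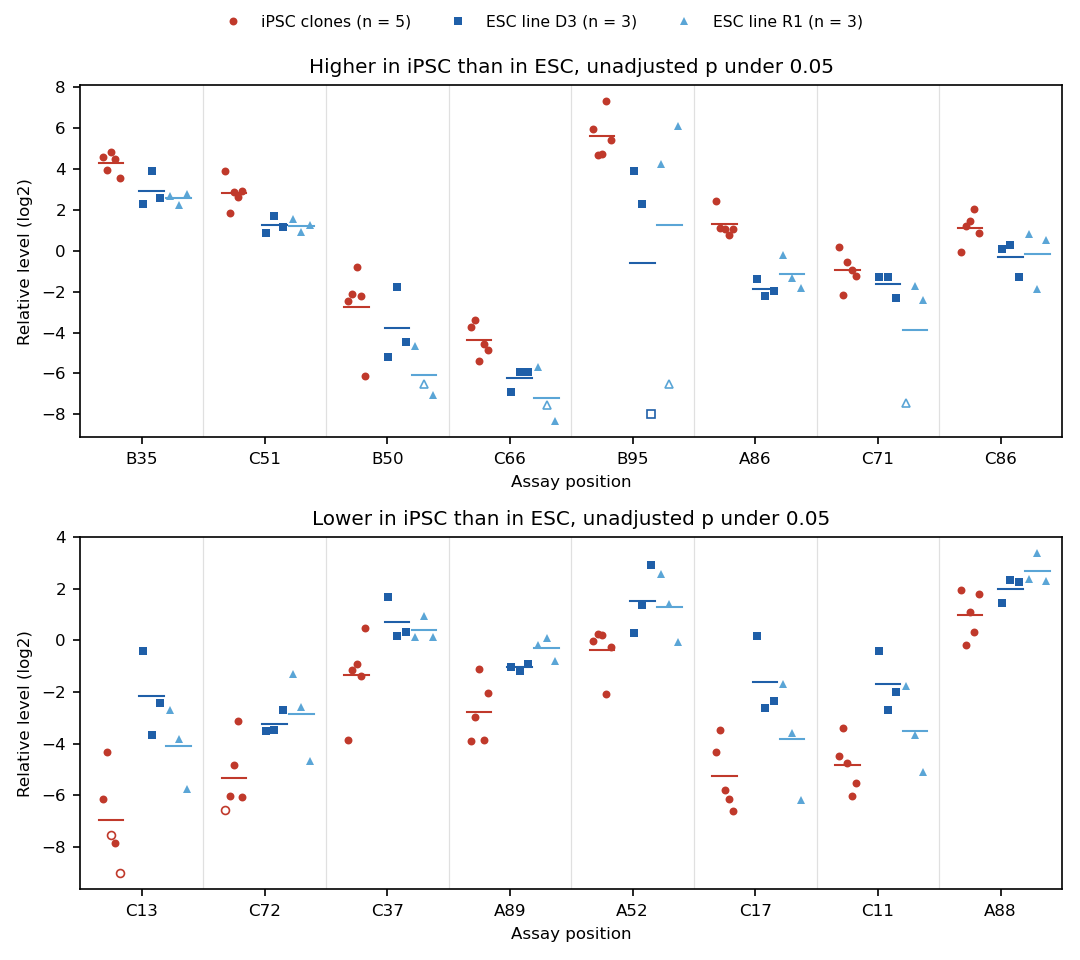
Relative level (log2, vertical axis) in each of the 5 iPSC clones (red circles), 3 D3 samples (dark blue squares) and 3 R1 samples (light blue triangles) at the 8 higher (top) and 8 lower (bottom) assays of smallest p. Horizontal lines are group means and open symbols have no Ct below 35. At A86, C51 and C66 all clones lie above all ESC samples, while at B95 and C71 the low ESC mean comes from open symbols.

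Against each ESC line by itself the result was similar in size. For iPSC minus D3, limma called 0 of 271 assays (0%), and 17 had an unadjusted p under 0.05 (6.27%), 7 higher (2.58%) and 10 lower (3.69%) in iPSC. The smallest adjusted p was 0.159, at C13, with a log2 difference of -4.80 (SE 1.18). For iPSC minus R1, 0 of 272 were called (0%), 16 had an unadjusted p under 0.05 (5.88%), 7 higher (2.57%) and 9 lower (3.31%), and the smallest adjusted p was 0.451. Other settings called up to 3 assays against D3 and up to 2 against R1. These comparisons use the same clones, so their values are given side by side and not as separate evidence. A86 differed by 3.14 from D3 and by 2.41 from R1, C51 by 1.59 and 1.60, and B35 by 1.36 and 1.71. B50 depended on the line, with 1.05 against D3 and 3.33 against R1, and its call against R1 was reached without clone 5 (1 assay called, adjusted p = 0.0257).

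No assay passed the threshold between the ESC lines either. For D3 minus R1, limma called 0 of 273 assays (0%), and 3 had an unadjusted p under 0.05 (1.1%), 2 higher (0.733%) and 1 lower (0.366%) in D3. The settings run called 0 throughout, with 0 to 27 assays at an unadjusted p under 0.05. The median absolute difference was 0.55, larger than the 0.45 between iPSC and the mean of the lines, with fewer samples on each side. Its interval lay within 4-fold for 48 of 273 assays, against 114 for iPSC and ESC, so that D3 and R1 were compared with less precision. Each of the 3 assays rested on 1 sample. C77 was at 7.58 ± 0.93 in D3 and 1.49 ± 7.78 in R1 (SD, n = 3 each), because R1 replicate 1 had no Ct, and the difference of 6.09 became 1.64 without it. B90 had a Ct of 33.3, 33.3 and 26 in D3, against 35.7, 35.6 and 37.6 in R1, and the difference of 3.35 was 1.00 without D3 replicate 3. A01 had no Ct in D3 replicate 1, and its difference of -3.68 was -0.76 without that sample.

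Distances between whole profiles put these differences on one scale. The distance of 2 samples was the median absolute log2 difference over the 186 assays detected in all 11. Clones were 0.79 from each other at the median of 10 pairs (range 0.60 to 1.09). They were 0.83 from ESC samples at the median of 30 pairs (0.63 to 1.13). Samples of one ESC line were 0.78 apart at the median of 6 pairs (0.65 to 0.93), with 0.76 within D3 and 0.89 within R1 (3 pairs each). D3 was 0.77 from R1 at the median of 9 pairs (0.66 to 1.17). On the 141 of these assays that were also detected in fibroblasts, the clones were 2.20 and the ESC 2.09 from fibroblasts, against 0.80 between iPSC and ESC. The distance between kinds of pluripotent cell was thus of the size of that within a kind. Pairs share samples, so no test was made.

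Single samples had their nearest neighbour in either kind. The nearest sample to clones 1, 3 and 4 was another clone, at 0.69 (clone 1 to clone 3) and 0.60 (clones 3 and 4). Clone 2 was nearest to D3 replicate 2, at 0.63, and clone 5 to D3 replicate 1, at 0.78. Of the 6 ESC samples, 2 had another ESC sample as nearest and 4 a clone. That clone was clone 2 for D3 replicates 1 and 2 and for R1 replicate 3, and clone 4 for R1 replicate 2. By the median over all other samples, 9 of 11 lay closer to their own kind, and the exceptions were clones 2 and 5. Clone 2, for example, was 0.72 from ESC samples and 0.79 from the other clones at the median.

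**Figure D3:**
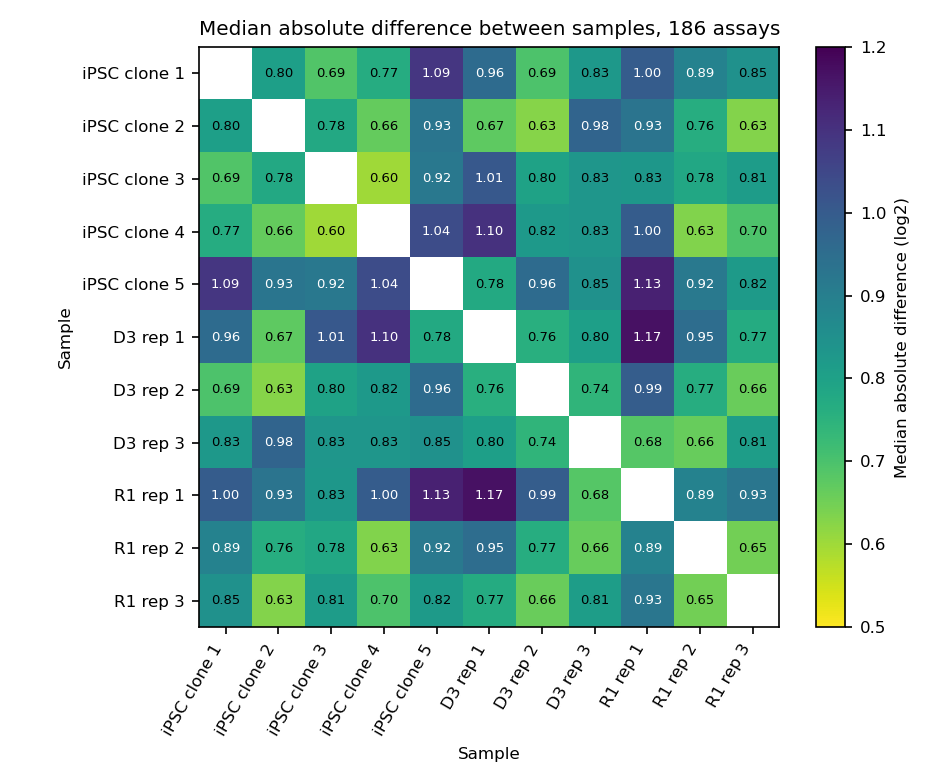
Median absolute log2 difference between each 2 of the 11 samples over 186 assays, as colour and printed value. The clones and the ESC samples form no separate blocks, clone 5 and R1 replicate 1 have dark rows, and the smallest value, 0.60, joins clones 3 and 4.

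The spread among the clones was close to that within the ESC lines. The median SD over the 186 assays was 0.80 among the 5 clones, 0.65 within D3 and 0.71 within R1, and 0.75 for the lines pooled. The SD was larger among the clones than within the pooled lines at 95 of 186 assays (51.1%). It exceeded 1 at 64 assays among the clones and at 56 within the pooled lines. Clone 5 deviated most from the clone median, being the farthest clone at 58 of 186 assays, with a median absolute deviation of 0.64 against 0.33 to 0.39 in the other clones. Without clone 5 the median SD among the clones was 0.69. In ESC, R1 replicate 1 was the farthest from the ESC median at 51 assays (median absolute deviation 0.54), and the median SD within the lines was 0.64 without it.

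**Figure D4:**
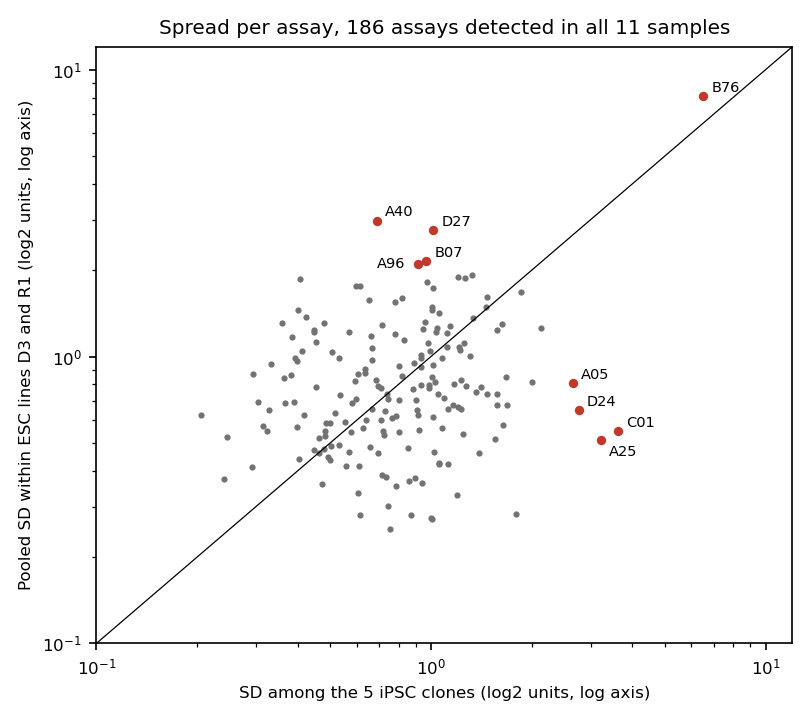
SD among the 5 iPSC clones (horizontal axis, log2 units) against the pooled SD within the ESC lines D3 and R1 (vertical axis, log2 units) for 186 assays, both on log axes. The line marks equal SD, 95 assays lie on its iPSC side, and the red points are the 5 assays of largest SD in each kind, with B76 among both.

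A few assays varied far more than the rest. B76 was the extreme in both kinds, with an SD of 6.51 among the clones and 8.11 within the ESC lines. Its Ct was 18.4, 17.4, 17.1, 29.6 and 29.4 in the clones, against 17.9, 16.0 and 33.8 in D3 and 20.3, 31.3 and 29.02 in R1. The values form a low class of 6 samples at 16.0 to 20.3 and a high class of 5 at 29.02 to 33.8, with each group in both classes. The log2 difference of 2.27 between iPSC and ESC (95% interval -3.82 to 8.36) says little at such a spread. In fibroblasts B76 was at -8.50 ± 2.50 (SD, n = 5), with 1 sample detected.

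The other variable assays of the clones each came down to 1 or 2 clones. C01 had a Ct of 30.9 in clone 5, against 22.3 to 25.7 in the other clones and 22.4 to 25.5 in ESC. A25 had 33.4 in clone 1, against 24.4 to 26.5 in the other clones and 24.6 to 27.0 in ESC. D24 had 34.5 in clone 5, against 26.4 to 28.5 in the other clones and 26.7 to 28.5 in ESC. A05 had 29.3 and 31.7 in clones 3 and 4, against 24.4 to 25.8 in the other clones and 25.8 to 28.0 in ESC. In each of these assays the remaining clones lay in or near the range of the ESC samples. In ESC the same was seen for R1 replicate 1, which had a Ct of 25.9 at A40, against 30.5 to 33.3 in the other ESC samples, and 30.0 at D27, against 21.7 to 23.1. At B07 and A96 the ESC values spread more evenly, between 26.9 and 33.2 and between 24.6 and 29.5.

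**Figure D5:**
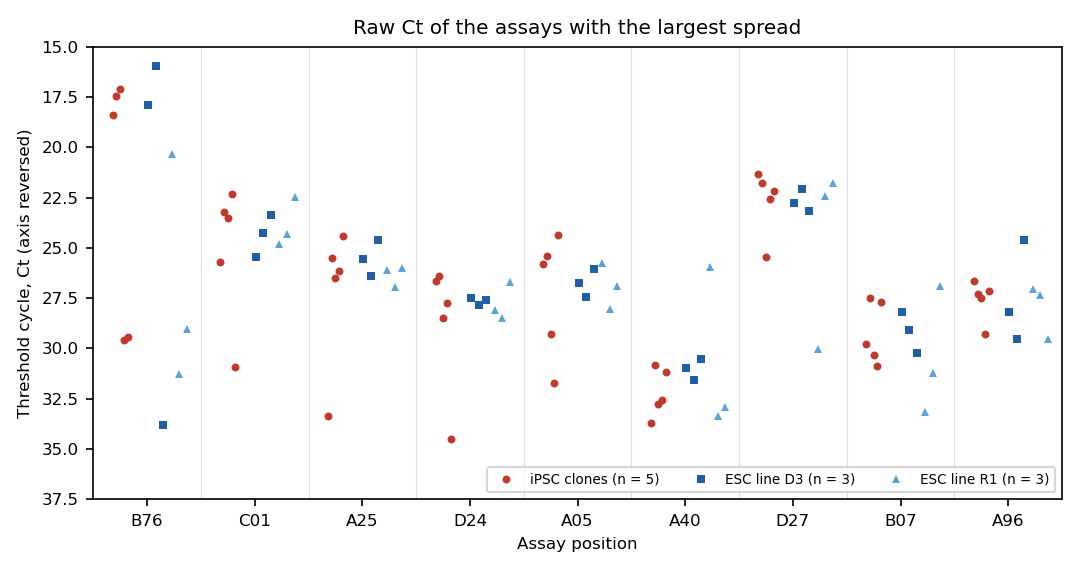
Raw Ct (vertical axis, reversed so that more RNA is higher) in each of the 5 clones, 3 D3 samples and 3 R1 samples at the 9 assays of largest spread. B76 splits into a low class at 16.0 to 20.3 cycles and a high class at 29.02 to 33.8 in every group, and C01, A25 and D24 have 1 clone apart from the other 10 samples.

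Empty wells also occurred at otherwise abundant assays. The 5 examples below were chosen as assays with 1 empty value, so each concerns a single sample by that choice. Of the 3465 values of the 11 samples, 358 had no Ct, and in 33 of these, at 23 assays, the median Ct of the group was below 30. The sharpest case was C77, with no Ct in R1 replicate 1 and 17.4 to 21.4 in the other 10 samples. C88 had no Ct in clone 4 and 16.6 to 27.2 elsewhere, A29 none in clone 1 and 24.0 to 26.5 elsewhere, and C25 none in clone 5 and 25.5 to 28.2 elsewhere. A01 had none in D3 replicate 1 and 25.5 to 27.3 elsewhere. Clone 5 held 6 of the 33 such values and clone 2 held 0. Whether such a well was a failed reaction or a level too low to read was not tested. At C88 the difference of iPSC minus ESC was -4.54 (SE 2.00, adjusted p = 0.583), the largest estimate among the lower assays, and it was -1.79 without clone 4. The clones with a Ct also ranged widely there, with 16.6 in clone 2 and 27.2 in clone 5. A further 36 values were exactly 36, which are above the limit and were treated as not detected.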

How the data were processed

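Raw threshold cycles (Ct, in PCR cycles, another unit than counts or intensities) were taken as deposited by the authors for 315 assay positions in 26 samples. Per the labels' protocols, reverse transcription started from 5 ng of total RNA, 303 microRNAs were assayed over 40 PCR cycles, and U6 small nuclear RNA was the authors' reference. The software is not given in the sources used. No U6 values of ESC were used here.

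The relative level was computed as the reference Ct minus the assay Ct. The reference was the mean over assays below a Ct of 35 in every one of the 26 samples (87 on plates A and B, 26 on C, 9 on D). Higher or empty values were set to 35. Testing required a Ct below 35 in at least 50% of either group. The fit used lmFit and eBayes of limma 3.58.1 (R 4.3.3) on all groups, with repeated activin samples of a clone averaged (24 columns), and iPSC were set against the mean of D3 and R1. P-values were adjusted by Benjamini-Hochberg over all assays tested, with a threshold of 0.05. The fit was also run on simulated data with normal noise, the same SD in all groups for an assay, and no values set to the limit. The real data differ in these points, so that run does not show how the fit behaves on them. No technical replicates were used. Precision depends on the number of samples and on the error shared over all groups. The SD among samples fell with the level of an assay, but the median interval did not narrow.

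Members, lists and tests were chosen with earlier results of these data known. Named were up to 8 assays each higher and lower in iPSC by smallest p, with an unadjusted p under 0.05 and detection in all samples of the higher group, and up to 4 for D3 and R1. The rule also took the 5 lowest mean Ct, the 5 largest SD in each kind, assays without overlap, and the 5 most abundant with 1 empty value. Marker lists were not tested, since positions are not paired with microRNA names. Alternatives covered the reference, the limit, the filter, the samples in the fit, sample weights, the replicate block and leaving out each sample. Plots and descriptions used Python 3.11.15 with numpy 2.4.6, pandas 2.3.3, scipy 1.17.1 and matplotlib 3.10.9.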

Additional observations from a re-analysis of the deposited data

Results flagged for a closer look

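Among the iPSC groups of 5 and ESC groups of 6 at the named assays, 15 of 78 (19.2%) held 1 sample far from the others by Dixon's criterion, 8 in iPSC and 7 in ESC. Chance gives about 1 in 20, and assays named for a large spread or an empty value had to show such samples. All values here are relative levels on the log2 scale.

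In iPSC, clone 1 was at 2.45 at A86, with the other clones at 0.76 to 1.12, and at -5.37 at A25, with the others at 1.18 to 2.47. Clone 1 had no Ct at A29 and was set to -7.01, with the others at 2.73 to 3.57. Clone 4 was at -2.06 at A52, with the others at -0.25 to 0.23. Clone 5 was at -4.93 at C01 (others 2.57 to 3.96) and at -7.27 at D24 (others -1.90 to -0.38). At C25 clone 5 had no Ct and was set to -9.02 (others -0.66 to 0.22). It was also at -5.26 at B90, where the others were at or near the limit, between -7.35 and -6.84.

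In ESC, D3 replicate 2 was at 3.90 at B35, with the other ESC samples at 2.25 to 2.77. R1 replicate 1 had no Ct at C71 and C77 and was set to -7.42 at both, with the others at -2.40 to -1.27 and at 4.98 to 8.59. D3 replicate 1 had no Ct at A01 and was set to -8.01, with the others at 0.17 to 1.58. D3 replicate 3 was at 1.02 at B90 (others -7.57 to -5.79). R1 replicate 1 was also at 2.07 at A40 (others -5.51 to -3.51) and at -2.40 at D27 (others 3.47 to 4.47).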

How the results depend on the processing

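For iPSC against ESC, 0 calls became 2 with quantile normalization (C13, C66), 2 with sample weights (B35, C13) and 1, A86, with the iPSC and ESC samples alone. The count was also 1, A86, in that fit with ESC as 1 group or with empty values missing, both chosen after seeing the data. It was 0 in the other settings and 0 to 0 when each sample was left out. Against D3, 0 became 3 with quantile normalization (C11, C13, C17) and 1 with sample weights (C13). It was 1 with these samples alone (A86), also with empty values missing, and 0 to 1 with a sample left out (C13 without clone 2). Against R1, 0 became 1 with quantile normalization (C66), 2 with sample weights (B35, B50) and 0 to 1 with a sample left out (B50 without clone 5). D3 against R1 stayed at 0 in all settings run. The number at an unadjusted p under 0.05 for iPSC against ESC, 20, was 37 with sample weights and 6 with each ESC line as 1 replicate. The replicate block gave 0 calls and 15 at an unadjusted p under 0.05. The deviations of same-numbered samples correlated between -0.33 and 0.17, and whether equal numbers mark a shared run was not tested. The block changed no call, but it moved the difference of iPSC minus ESC from -4.54 to -0.065 at C88 and from 2.27 to 7.01 at B76. The difference in detected assays, -1.60, ranged between -6.00 and 2.25 with a sample left out, turning to 2.25 without clone 1 and 0.60 without R1 replicate 3. With 1 mean Ct over all plates, the distance was 0.966 among clones, 0.913 within ESC lines and 0.970 between D3 and R1. The distance of iPSC to ESC with that reference is not given here, so these values do not repeat that comparison. The median SD among clones was 0.959 with that reference, 0.906 with the limit at 40, 0.919 over all assays tested and 0.685 to 0.834 with a sample left out. Within ESC lines it was 0.680 with the limit at 32, 0.826 at 40, 0.857 over all assays tested and 0.636 to 0.777 with a sample left out. The cause of these changes was not tested. For the assays named for a difference or abundance, and for B76 and C88, 755 of 776 values kept their direction and side of the threshold, 7 became calls and 14 reversed. No assay was called in the main setting, so the side could change only toward a call. A kept direction does not mean a kept size, which changed widely at B95, C77 and C88, as given above. The reversals were at B74, A03, B39, A75 and B76. Quantile normalization turned B74 to -0.76, B39 to -0.27 and A75 to -0.35. The replicate block turned A03 to -0.20 and B39 to -0.075, and the reference of assays detected in all 11 samples turned B74 to -0.049. With a sample left out, the differences ranged from -0.36 to 0.42 at B74, from -0.14 to 0.40 at A03 and from -0.16 to 0.40 at B39. At B76 they ranged from -0.58 to 4.19. U6 as the reference was not run, since no ESC values of it were used here. The number of samples and the shared error limit all intervals, and a level near a Ct of 35 is a bound.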

Other observations

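Clone 2 of the iPSC had 2 values below a Ct of 12, both named after they were seen. B28 had a Ct of 11.1 there, with a single other Ct, 39.0, among the 11 samples. D12 had a Ct of 3.43, against 35.5 to 39.7 in the 7 other samples with a Ct. Neither assay was detected in another of the 11 samples, and neither was tested. Taking both as missing left 0 assays called and 20 at an unadjusted p under 0.05 between iPSC and ESC. A21 had a Ct of 23.7 in clone 2 and 34.7 in clone 4, and no Ct below 35 in the other 9 samples.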
